A study of Mus musculus with 3 samples.

Results

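The fibrillar collagen genes of tendon were examined in single-cell RNA-seq (scRNA-seq) libraries of mouse embryonic stem cell (mESC) differentiation and of the embryonic tail. The members are the rows of *Col1a1*, *Col1a2*, *Col3a1*, *Col5a1*, *Col5a2* and *Col5a3*, 6 genes chosen by symbol, and all 6 were listed among the 27755 genes of the D10 culture and tail tables and among the 25936 genes of the D6 PM table. The study directed mESCs through paraxial mesoderm (PM) toward tendon cells and set the resulting cells beside tendon of the embryo. The 3 libraries were 1 of the whole D10 culture, 1 of E14.5 tail cells and 1 of the D6 PM stage, with 7821, 2052 and 5954 cells. The mESCs came from mice with the ScxGFP transgene, in which green fluorescent protein reports *Scx*, a transcription factor gene of tendon, and were maintained on irradiated mouse embryonic fibroblast (MEF) feeders. They received 500 nM LDN-193189, a BMP receptor inhibitor, alone over the first 2 days and together with 5 μM CHIR, a GSK3 inhibitor, from then to D6. The D10 culture then received 10 ng/mL TGFβ1, 100 nM SAG, a hedgehog pathway agonist, and 10 ng/mL FGF2. The tail cells were dissociated directly from E14.5 embryos of ScxGFP mice on the C57BL6 strain and had no treatment. How many embryos were pooled, and which of the study's mESC lines was sequenced, is not given in the sources used here.

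Fibrillar collagens are secreted as procollagens, trimmed outside the cell and packed side by side into the fibrils that carry load in tendon. Type I collagen, made of the *Col1a1* and *Col1a2* chains, forms the bulk of the tendon fibril, and type III collagen, made of *Col3a1* chains alone, is mixed into it during development and healing. Type V collagen, made of the *Col5a1* and *Col5a2* chains or, in some tissues, with *Col5a3*, starts fibrils and limits their width.

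A unique molecular identifier (UMI) marked each captured transcript, and each transcript was read near its 3′ end, so that UMI counts were not divided by gene length. Genes can still differ in how well their transcripts are captured and mapped, which enters every ratio between chains and was not tested. Levels are in CPM, the UMIs of a gene over the cells of a cluster scaled to 1000000 UMIs of all genes in those cells. Clusters carry the code deposited with each cell, 14 codes in the culture, 13 of them also in the tail, and 6 separate codes for D6 PM. These codes start from 1 and need not be the numbers that the study's text gives the same clusters. Parentheses after a value hold its exact 95% interval for counting error alone, by Clopper-Pearson for shares of cells, by the conditional binomial for ratios and by Poisson for levels. Each condition was a single library without a replicate, so no test between conditions was made and no p-value was computed. The clusters were themselves built from the expression of these cells, so that differences between clusters are descriptions.

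The labels of the clusters were set against marker genes. In culture and tail, cluster 1 was tendon-like, with 3251 and 1798 CPM summed over 7 tendon markers, although the keratocan gene *Kera* was at 0 in the culture. In the tail these markers did not set cluster 1 apart, since cluster 4 there held more of them, and at 3000 UMIs a cell *Scx* was found in 37.8% of the cells of tail cluster 1, 62.9% of those of tail cluster 4 and 91.3% of those of culture cluster 1. Cluster 2 was tendon-like and proliferating, and cluster 4 was cartilage-like, with 4279 and 9265 CPM of 7 cartilage markers beside 2761 and 2064 CPM of the tendon markers. In D6 PM, cluster 4 was PM-like and cluster 5 carried all 6 fibroblast markers. Cluster 9 of culture and tail held fibroblast and macrophage markers side by side and was left unnamed. All names of cell types rest on these markers and may differ from the names the study gives the same clusters.

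Promoter sequences are shown because 5 of the 6 genes varied together over the clusters described here while *Col5a3* did not. RefSeq (GRCm38.p6) gave the 250 bases before the start of 4 members, on the strand of the gene, at chr6:4505368-4505617 (+) for *Col1a2*, chr1:45311288-45311537 (+) for *Col3a1*, chr2:27886175-27886424 (+) for *Col5a1* and chr9:20815068-20815317 (-) for *Col5a3*. *Col1a1* and *Col5a2* had no entry in the promoter table. Capitals mark the letters CCAAT of a CCAAT box, GGGCGG of a GC box and, last, TATAAA of a TATA box, on either strand.
Col1a2: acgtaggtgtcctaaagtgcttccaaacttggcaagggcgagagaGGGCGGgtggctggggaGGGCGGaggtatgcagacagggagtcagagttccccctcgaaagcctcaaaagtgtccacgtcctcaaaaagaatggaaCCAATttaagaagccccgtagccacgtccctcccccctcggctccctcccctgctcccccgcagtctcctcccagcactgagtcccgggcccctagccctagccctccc
Col3a1: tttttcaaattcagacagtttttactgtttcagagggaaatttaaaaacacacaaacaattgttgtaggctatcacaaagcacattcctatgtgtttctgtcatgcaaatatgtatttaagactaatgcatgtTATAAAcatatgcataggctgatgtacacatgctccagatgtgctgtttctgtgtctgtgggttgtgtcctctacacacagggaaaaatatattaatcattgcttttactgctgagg
Col5a1: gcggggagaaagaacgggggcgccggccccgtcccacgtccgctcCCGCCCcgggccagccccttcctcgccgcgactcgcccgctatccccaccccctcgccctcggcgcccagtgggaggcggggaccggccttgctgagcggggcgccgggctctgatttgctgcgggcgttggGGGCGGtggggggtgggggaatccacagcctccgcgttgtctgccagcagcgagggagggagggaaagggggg
Col5a3: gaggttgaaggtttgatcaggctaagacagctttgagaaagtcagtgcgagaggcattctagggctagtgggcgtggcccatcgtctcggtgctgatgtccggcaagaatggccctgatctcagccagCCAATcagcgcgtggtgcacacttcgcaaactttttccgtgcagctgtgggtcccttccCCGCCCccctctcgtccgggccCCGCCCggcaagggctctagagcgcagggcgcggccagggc

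The *Col1a2* window held CCAAT once, 109 bases before the start, and GGGCGG at 205 and 188 bases. *Col5a3* held the same kinds of letters, CCAAT at 122 bases and GGGCGG at 63 and 41 bases, although its levels followed another pattern. *Col5a1* held GGGCGG at 205 and 73 bases. *Col3a1* was unlike the other 3, with TATAAA at 117 bases and neither CCAAT nor GGGCGG, and with a G and C content of 35.2% against 62.0% in *Col1a2*, 62.8% in *Col5a3* and 76.4% in *Col5a1*. The E-box letters CANNTG, the class of site that SCX binds, stood at 194, 111, 91 and 82 bases in *Col3a1*. In *Col5a3* they stood once, at 81 bases, and in the *Col1a2* and *Col5a1* windows nowhere. Among 32851 RefSeq promoters of the same length, 33.8% held CCAAT, 32.7% GGGCGG, 12.4% TATAAA and 66.2% CANNTG. These matches describe letters and not bound sites. In the same annotation *Col3a1* and *Col5a2* are neighbouring protein-coding genes on chromosome 1.

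*Col1a1*, the major chain of type I collagen, stood at 2741 CPM (2715 to 2766) in tendon-like cluster 1 of the culture and at 3185 CPM (3150 to 3220) in that of the tail. *Col1a2*, its partner chain, stood at 1963 CPM (1941 to 1984) and 2519 CPM (2489 to 2551). *Col3a1*, the type III chain, stood at 1884 CPM (1863 to 1905) in the culture and 3557 CPM (3520 to 3594) in the tail. It was thus the third most abundant member in cultured tendon-like cells and the most abundant in those of the tail, with intervals that did not overlap those of the neighbouring genes. *Col5a2* followed with 926 CPM (912 to 941) and 787 CPM (769 to 804), and *Col5a1*, the chain needed for every form of type V collagen, with 358 CPM (349 to 367) and 574 CPM (559 to 589). *Col5a3*, the rarest type V chain, was near the floor, with 20 UMIs in 2964 culture cells and 37 UMIs in 685 tail cells, or 1.21 CPM (0.736 to 1.86) and 3.65 CPM (2.57 to 5.04). The 6 genes together took 0.787% of all UMIs of cultured and 1.06% of tail tendon-like cells.

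Proliferating cluster 2 kept the order of cluster 1 in the tail, and in the culture only *Col1a2* and *Col3a1* changed places. *Col1a1*, *Col1a2*, *Col3a1*, *Col5a2*, *Col5a1* and *Col5a3* stood there at 2363, 1557, 1617, 725, 284 and 0.654 CPM in the culture and at 2240, 1846, 2432, 497, 410 and 3.0 CPM in the tail. Cartilage-like cluster 4 held less of each gene other than *Col5a3*, whose counts in the culture were too few to tell. In the culture, *Col1a1* and *Col3a1* were level at 1244 CPM, *Col1a2* stood at 571 CPM, *Col5a2* at 458 CPM and *Col5a1* at 238 CPM, and no UMI of *Col5a3* was found, where 3 UMIs would be 0.902 CPM. In the tail, *Col1a2* led at 807 CPM, followed by *Col1a1* at 722 CPM and *Col3a1* at 710 CPM, the intervals of the latter 2 overlapping, then *Col5a1* at 283 CPM, *Col5a2* at 133 CPM and *Col5a3* with 2 UMIs.

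**Figure D1:**
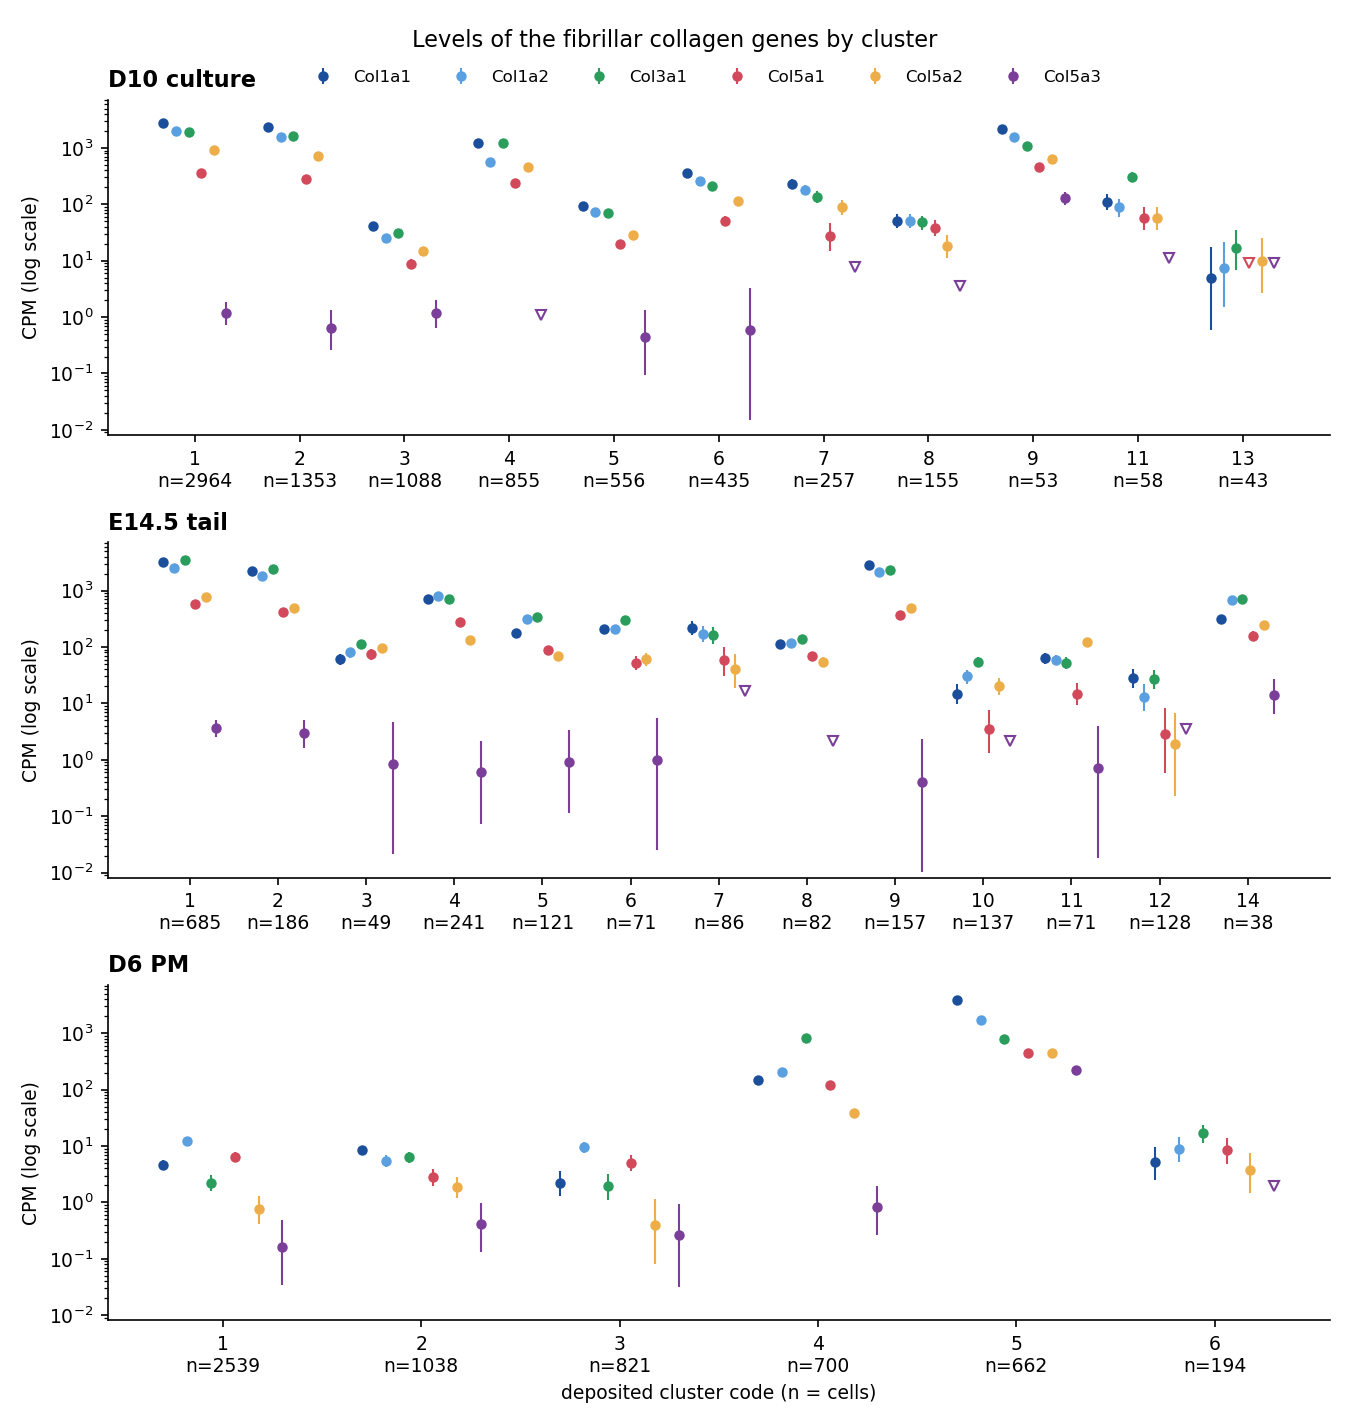
Levels of the 6 genes in CPM (log axis) in the deposited clusters of at least 30 cells of the 3 libraries, with exact 95% Poisson intervals and the number of cells under each code. *Col1a1* is at 722 CPM or more in clusters 1, 2, 4 and 9 of culture and tail and in cluster 5 of D6 PM, and *Col5a3* exceeds 100 CPM only in culture cluster 9 and D6 PM cluster 5.

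Pluripotent-like cluster 3 of the culture held 41.1 CPM of *Col1a1*, 24.8 of *Col1a2*, 30.5 of *Col3a1*, 14.7 of *Col5a2* and 8.78 of *Col5a1*. Against it, cultured tendon-like cells were 66.7, 79.1, 61.7, 63.1 and 40.7 times higher for these genes. *Col5a3* stood at 1.19 CPM on 14 UMIs in cluster 3 and 1.21 CPM in the tendon-like cells, a ratio of 1.01 (0.485 to 2.16). The blood cells of tail cluster 12, in which haemoglobin and other erythroid markers made up 383458 CPM, give a measure of free RNA in the tail library. They held 28.2 CPM of *Col1a1*, 13.2 of *Col1a2* and 27.3 of *Col3a1*, with 3, 2 and 0 UMIs of *Col5a1*, *Col5a2* and *Col5a3*. In D6 PM clusters 1, 2 and 3 the members summed to 26.4, 25.4 and 19.5 CPM, and no cell type of that library was used as a measure of free RNA.

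Shares of cells with a UMI were compared after each cell was thinned to 3000 UMIs. *Col1a1* was found in 98.5% (98.0 to 98.9) of cultured and 94.8% (92.9 to 96.4) of tail tendon-like cells, against 7.20% (3.35 to 13.2) of the tail blood cells, whose median depth before thinning was 8391.5 UMIs beside 4918.5 and 13463 in the tendon-like clusters. Without thinning the share in blood cells was 14.1%. *Col3a1* was found in 96.6% and 97.6%, *Col5a2* in 86.9% and 78.3%, and *Col5a1* in 62.5% and 72.4% of cultured and tail tendon-like cells, against 4.0%, 0.80% and 0.80% of the blood cells. All of *Col1a1*, *Col1a2*, *Col3a1*, *Col5a1* and *Col5a2* were detected at once in 52.1% of cultured and 56.2% of tail tendon-like cells, and in 19.8% and 7.92% of the cells of cluster 4.

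The summed UMIs of the 6 genes were more evenly spread over cultured than over tail tendon-like cells. The median thinned cell of cluster 1 held 22 UMIs in both libraries. The quartiles were 16 and 30 in the culture and 15 and 37 in the tail, the highest cells held 78 and 166 UMIs, and the variance was 5.26 and 17.5 times the mean. Tail cells with far more collagen than the median thus drew the tail mean to 29.7 UMIs, against 23.8 in the culture. Median cells of cluster 4 held 10 and 7 UMIs. The difference in spread was not tested, since each condition was 1 library.

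**Figure D2:**
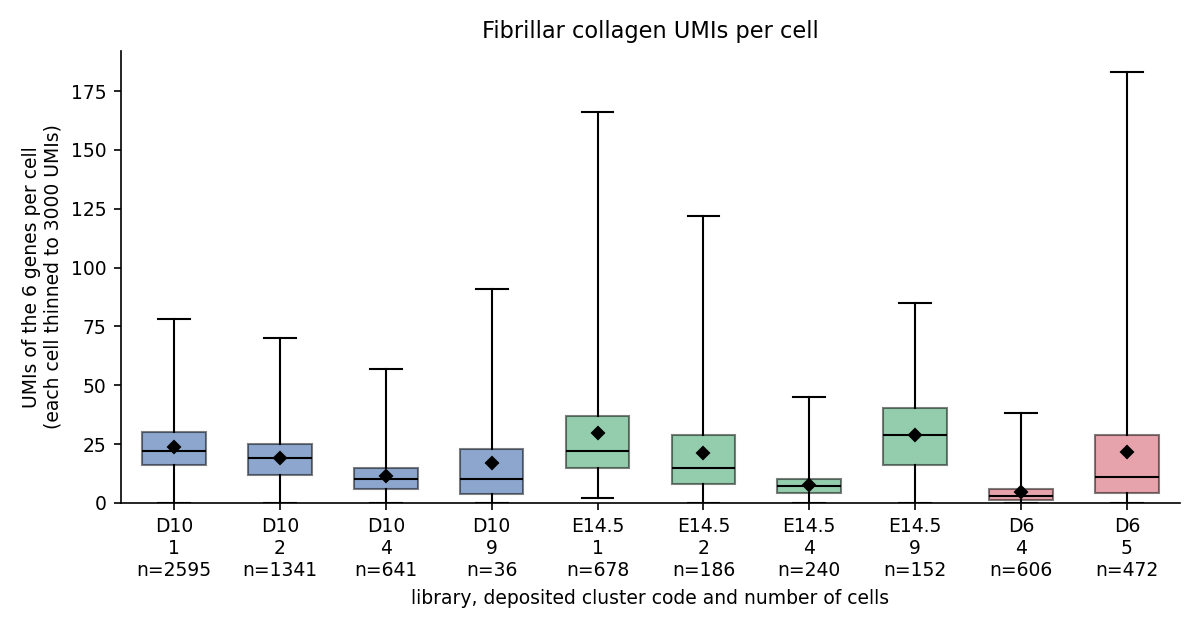
UMIs of the 6 genes per cell after thinning to 3000 UMIs, by library and deposited cluster, with the number of cells. Tendon-like cells of culture and tail share a median of 22 UMIs, while the highest tail cell holds 166 and the highest culture cell 78.

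Culture and tail were compared within tendon-like cluster 1, which asks how closely mESC-derived tendon cells match the collagen levels of embryonic tendon. Relative to the tail, the culture level was 0.861 (0.848 to 0.873) for *Col1a1*, 0.779 (0.766 to 0.792) for *Col1a2*, 0.530 (0.522 to 0.538) for *Col3a1* and 0.623 (0.601 to 0.646) for *Col5a1*. *Col5a2* alone was higher in the culture, at 1.18 (1.15 to 1.21). *Col5a3*, on 20 and 37 UMIs, gave 0.330 (0.181 to 0.583) and was too rare for the comparison across genes. None of the 5 members compared passed 2-fold, which 5.76% of 10418 genes did upward and 13.6% downward. The median ratio of all genes compared was 0.868 (log2 -0.20), and relative to that median *Col1a1* was at 0.992 (0.978 to 1.01), *Col1a2* at 0.898 (0.883 to 0.913), *Col5a1* at 0.718, *Col3a1* at 0.610 and *Col5a2* at 1.36. *Col1a2*, *Col3a1* and *Col5a1* thus lay below this median and *Col5a2* above it. It was taken over genes found in at least 10% of cells of either cluster. Over the 6878 genes found in at least 10% of cells of both clusters, as all 5 members were, the median log2 ratio was -0.05. Of these genes, 6.66% were at least 2-fold higher and 4.06% lower. Against that median *Col1a1* lay below as well, so its place depends on the genes compared. Erythroid markers stood at 23.5 CPM in the culture cells and 1074 CPM in the tail cells of this cluster, and CPM over other genes only, leaving out haemoglobin, mitochondrial, ribosomal protein and collagen genes, gave a summed ratio of 0.721 beside 0.741 (0.735 to 0.747). The clusters differed in *Scx*, with no *Scx* UMI in 225 of 2595 thinned cells in the culture and 422 of 678 in the tail. Among thinned cells with an *Scx* UMI the ratio was 0.922 (0.882 to 0.963) for *Col1a1*, 0.906 for *Col1a2*, 0.691 (0.660 to 0.724) for *Col3a1*, 0.703 for *Col5a1* and 1.27 for *Col5a2*. Thinned cells weigh equally, and all cells of the cluster at equal weight gave 0.609 for *Col3a1*. Condition and library cannot be told apart.

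The same ratios were taken in proliferating cluster 2 and cartilage-like cluster 4. In cluster 2 the culture over tail ratio was 1.05 (1.03 to 1.08) for *Col1a1*, on the other side of 1 from cluster 1, 0.843 for *Col1a2*, 0.665 for *Col3a1*, 0.693 for *Col5a1* and 1.46 for *Col5a2*, with none past 2-fold (background 5.5% higher and 13.6% lower). In cluster 4 it was 1.72 for *Col1a1*, 0.707 for *Col1a2*, 1.75 for *Col3a1*, 0.841 for *Col5a1* and 3.44 (3.09 to 3.83) for *Col5a2*. *Col5a2* was the 1 member of 5 past 2-fold in cluster 4, where 4.86% of 9986 genes were at least 2-fold higher. The summed level was 0.741, 0.881 and 1.41 of the tail level in clusters 1, 2 and 4. The cartilage-like cells of the tail carried 9265 CPM of cartilage markers against 4279 CPM in the culture, and the part of this in the collagen ratios was not tested.

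**Figure D3:**
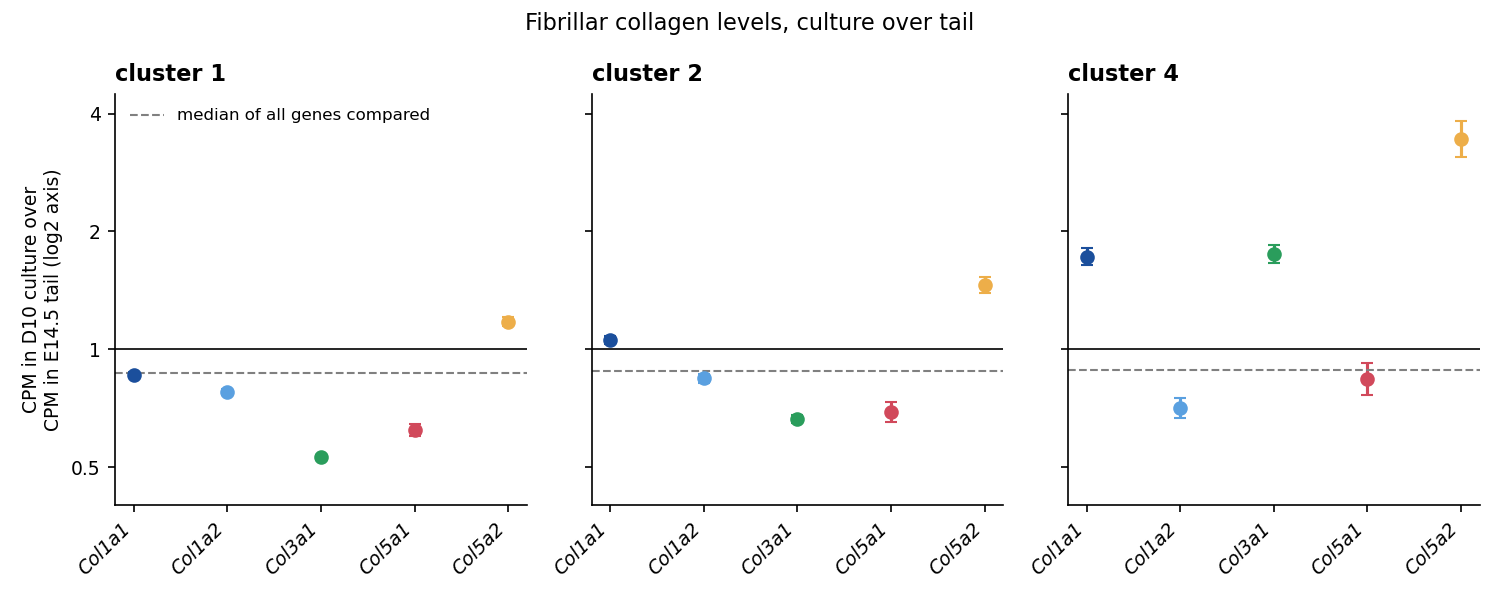
Ratio of CPM in the D10 culture to CPM in the E14.5 tail (log2 axis) for 5 genes in clusters 1, 2 and 4, with exact 95% intervals and, as a dashed line, the median ratio of all genes compared. *Col5a2* has the highest ratio in each panel, 1.18, 1.46 and 3.44, and *Col3a1* lies at 0.530 in cluster 1 and 1.75 in cluster 4.

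Within each library, cartilage-like cells held less of the 5 type I, III and V genes compared than tendon-like cells. The ratios were lower in the tail for 4 of these 5 genes and higher for *Col1a2*. The cluster 4 over cluster 1 ratio in the tail was 0.227 for *Col1a1*, 0.320 for *Col1a2*, 0.20 for *Col3a1*, 0.494 for *Col5a1* and 0.169 for *Col5a2*, so that all 5 were at least 2-fold lower (6.28% of 10654 genes were lower and 3.65% higher). In the culture *Col1a2* had the lowest ratio at 0.291 and *Col5a1* stood at 0.666, and 3 of the 5 passed 2-fold (3.36% of 7077 genes were lower and 1.54% higher). Summed over members the ratio was 0.477 (0.468 to 0.486) in the culture and 0.25 (0.245 to 0.256) in the tail. Proliferating cells differed less from tendon-like cells, with summed ratios of 0.832 and 0.699. The 5 genes compared lay between 0.783 and 0.862 in the culture and between 0.632 and 0.733 in the tail. None of these 5 passed 2-fold (0.186% and 2.76% of genes were lower and 4.21% and 5.47% higher). *Col5a3*, too rare for the comparison, gave 0.542 (0.194 to 1.33) in the culture and 0.822 (0.401 to 1.58) in the tail.

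The ratios between chains separated the libraries and clusters further. In tendon-like cells *Col1a1* exceeded *Col1a2* 1.40 times (1.38 to 1.42) in the culture and 1.26 times (1.24 to 1.29) in the tail. In cartilage-like cells the ratio was 2.18 (2.06 to 2.30) in the culture and 0.895 (0.846 to 0.946) in the tail, on opposite sides of the tendon-like values. For each *Col1a1* UMI there were 0.687 (0.678 to 0.697) *Col3a1* UMIs in cultured and 1.12 (1.10 to 1.13) in tail tendon-like cells. Type III UMIs made up 23.9% and 33.5% of the members' UMIs there. *Col5a1* over *Col5a2*, the chains of the common type V molecule, was 0.386 (0.375 to 0.398) in cultured and 0.730 (0.705 to 0.755) in tail tendon-like cells. It was 0.520 and 2.12 in cluster 4. *Col5a2* UMIs thus outnumbered *Col5a1* UMIs in tendon-like cells of both libraries and in cultured cartilage-like cells, but not in the cartilage-like cells of the tail. Type V UMIs made up 16.3% of the members' UMIs in cultured and 12.8% in tail tendon-like cells.

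**Figure D4:**
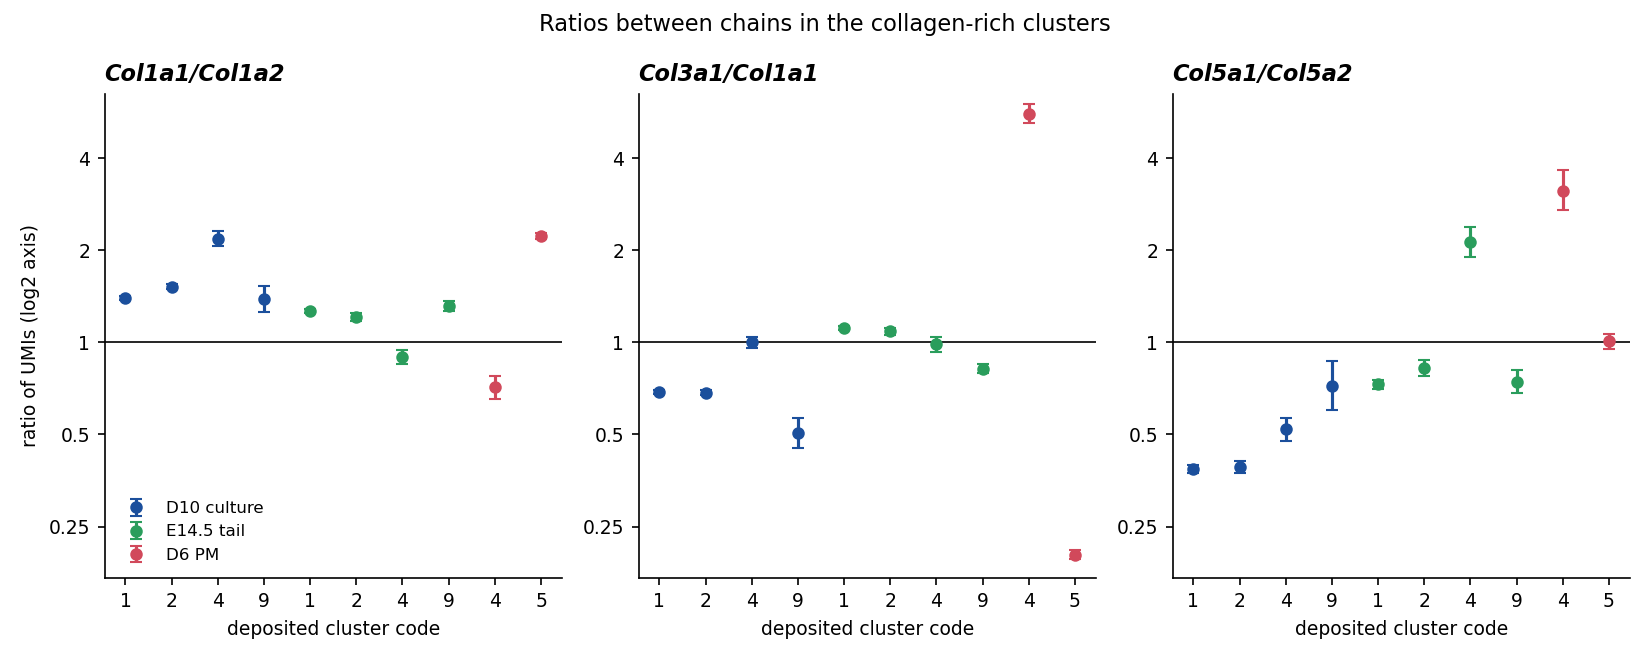
Ratios of UMIs between chains (log2 axis) in the collagen-rich clusters of the 3 libraries, with exact 95% intervals. *Col1a1*/*Col1a2* is 2.18 in culture cluster 4 and 0.895 in tail cluster 4, and *Col3a1*/*Col1a1* is 5.57 in D6 PM cluster 4.

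At the D6 PM stage the PM-like cells already carried *Col3a1* while the type I genes were low. D6 PM cluster 4 held 815 CPM (792 to 838) of *Col3a1*, 205 CPM (194 to 217) of *Col1a2*, 146 CPM (137 to 156) of *Col1a1*, 121 CPM (112 to 130) of *Col5a1*, 38.7 CPM (33.9 to 43.9) of *Col5a2* and 5 UMIs of *Col5a3*. The order was thus type III first, *Col1a2* above *Col1a1* and *Col5a1* above *Col5a2*, each the reverse of cultured tendon-like cells. Type III UMIs made up 61.4% of the members' UMIs, and *Col3a1*/*Col1a1* was 5.57 (5.19 to 5.99). *Col3a1* was found in 72.4% of these cells at 3000 UMIs and *Col1a1* in 25.7%. In D6 PM clusters 1, 2 and 3 the shares were 0.622%, 1.09% and 1.15% for *Col3a1* and 1.29%, 1.74% and 0.866% for *Col1a1*.

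From PM-like cells at D6 to tendon-like cells at D10, all 5 members compared were at least 2-fold higher, against 9.88% of 8934 genes, with 10.8% lower. *Col5a2* was 24.0 times (21.1 to 27.4) and *Col1a1* 18.7 times (17.5 to 20.0) higher, *Col1a2* 9.55 times (9.03 to 10.1), *Col5a1* 2.95 times (2.74 to 3.19) and *Col3a1* 2.31 times (2.24 to 2.38). *Col5a3* gave 1.47 (0.534 to 5.0) on 20 and 5 UMIs. The libraries were prepared from different stages and each was sequenced once, so that stage and library cannot be told apart.

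*Col5a3* was the member with its own pattern. It reached 221 CPM (210 to 234) in D6 PM cluster 5, from 1306 UMIs in 662 cells, and 130 CPM (98.3 to 168) in culture cluster 9, from 57 UMIs in 53 cells. Among the other clusters of at least 30 cells, the highest level was 14.1 CPM (6.45 to 26.8) in the glia-like cells of tail cluster 14, on 9 UMIs, and tail cluster 9 held 1 UMI. At 3000 UMIs a cell, *Col5a3* was found in 33.9% (29.6 to 38.4) of the cells of D6 PM cluster 5 and in 8 of 36 cells of culture cluster 9, against 0.270% of cultured and 1.18% of tail tendon-like cells and 0 of 125 tail blood cells. D6 PM cluster 5 exceeded D6 PM cluster 4 in *Col5a3* 269 times (115 to 830), on 1306 and 5 UMIs, and cultured tendon-like cells 184 times (118 to 302).

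The cells of D6 PM cluster 5 were also rich in type I genes, with little *Col3a1* relative to *Col1a1*. *Col1a1* stood at 3858 CPM (3808 to 3908), above both tendon-like clusters, *Col1a2* at 1732 CPM, *Col3a1* at 781 CPM, *Col5a1* at 443 CPM and *Col5a2* at 440 CPM. *Col3a1*/*Col1a1* was 0.202 (0.196 to 0.209), the lowest of the collagen-rich clusters plotted, and *Col5a3*/*Col5a1* was 0.50 (0.468 to 0.535), against 0.00337 in cultured and 0.00637 in tail tendon-like cells. Relative to PM-like cluster 4 of the same library, 4 of the 5 members other than *Col5a3* were at least 2-fold higher (15.4% of 9500 genes), and *Col3a1* was at 0.958 (0.920 to 0.998), but at 1.20 (1.15 to 1.25) relative to the median ratio of all genes compared, which was 0.801. *Col5a3* is left out of these counts, since it entered the comparisons only through the cluster where it was high. Relative to cultured tendon-like cells, *Col3a1* was at 0.415, *Col5a2* at 0.475 and *Col1a1* at 1.41. Of the 5 members other than *Col5a3*, none was at least 2-fold higher (15% of 8618 genes) and 2 were lower (18.4%). Relative to the median ratio of all genes compared, which was 0.927, *Col5a2* was at 0.512 (0.491 to 0.534). Only *Col3a1*, at 0.447 (0.433 to 0.461), then stayed at least 2-fold lower.

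Culture cluster 9 was the other cluster with *Col5a3*. It held 2166 CPM of *Col1a1*, 1563 of *Col1a2*, 1093 of *Col3a1*, 645 of *Col5a2* and 465 of *Col5a1*. Relative to D6 PM cluster 5 the ratios were 0.561, 0.902, 1.40, 1.47 and 1.05, and 0.586 (0.442 to 0.765) for *Col5a3*, with none of 6 past 2-fold where 8.16% of 8481 genes were higher and 8.69% lower. Tail cells with the same code 9 held 2870 CPM of *Col1a1*, 2182 of *Col1a2* and 2352 of *Col3a1* and 0.411 CPM of *Col5a3*. The 117 of these 157 cells without a macrophage UMI held 4005, 3032 and 3279 CPM of the type I genes and *Col3a1*, and 32 cells with at least 10 macrophage UMIs held 441 CPM of *Col1a1*. Of the 5 members other than *Col5a3*, none was at least 2-fold higher in the culture than in the tail in this code (12.4% of 10758 genes). *Col3a1* was lower at 0.465 (30.6%). Relative to the median ratio of all genes compared, which was 0.787, *Col3a1* was at 0.591 (0.537 to 0.649) and did not pass 2-fold. *Col5a3* had 57 and 1 UMIs.

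Other genes set culture cluster 9 and D6 PM cluster 5 apart from the rest of their libraries. UMIs of the Y-linked genes *Ddx3y*, *Eif2s3y*, *Kdm5d* and *Uty* summed to 737 in D6 PM cluster 5, in 205 of 662 cells, and to 17 in the other 5292 cells of that library. In the culture they summed to 24 UMIs in 8 of the 53 cells of cluster 9 and to 4 UMIs in the other 7768 cells. *Xist*, the RNA that coats the inactive X chromosome, stood at 1152 CPM in D6 PM cluster 5 and 631 CPM in culture cluster 9, against 23.4 CPM in D6 PM cluster 4 and 6.39 CPM in cultured tendon-like cells. The ScxGFP transgene had no UMI in culture cluster 9 or D6 PM cluster 5, which held 439035 and 5897865 UMIs of all genes. Cultured tendon-like cells had 902 ScxGFP UMIs among 16589854. *Scx* stood at 178 CPM in culture cluster 9 and 5.43 CPM in D6 PM cluster 5, against 2410 CPM in cultured tendon-like cells. For D6 PM cluster 5 these cells are of another library and stage. Where *Scx* is so low, few ScxGFP UMIs could be found, so their absence tells little. All 6 fibroblast markers were found in both clusters, summing to 941 and 1156 CPM. Irradiated MEF feeders are named under the mESCs, and whether the cells of these clusters came from feeders or from mESCs was not tested.

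*Col5a3* was present in these clusters with and without Y-linked UMIs. In D6 PM cluster 5 it stood at 305 CPM (283 to 329) in the 205 cells with a Y-linked UMI, 182 CPM (167 to 198) in 259 cells with *Xist* and no Y-linked UMI, and 99.2 CPM (75.1 to 129) in 198 cells with neither. *Col1a1* was at 4150, 3983 and 2039 CPM in the same cells. The cells were not thinned for this split, and those with neither were the shallow ones, with a median of 1552.5 UMIs per cell against 10491 and 11724. In culture cluster 9, 386 of the 480 *Col3a1* UMIs lay in 18 cells with *Xist* and no Y-linked UMI, at 1746 CPM (1576 to 1929), against 365 CPM in 8 cells with a Y-linked UMI and 491 CPM in 27 cells with neither, whose median depth was 2566 UMIs against 12974.5 and 13296. Macrophage markers, summing to 158 CPM in D6 PM cluster 5 and 615 CPM in culture cluster 9, were concentrated in few cells, and the 13 cells of D6 PM cluster 5 with at least 10 macrophage UMIs held no *Col5a3* UMI and 1 *Col1a1* UMI. *Col5a3* stood at 212 CPM (199 to 226) in the 558 cells without a macrophage UMI and at 300 CPM (270 to 333) in the 91 cells with 1 to 9.

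**Figure D5:**
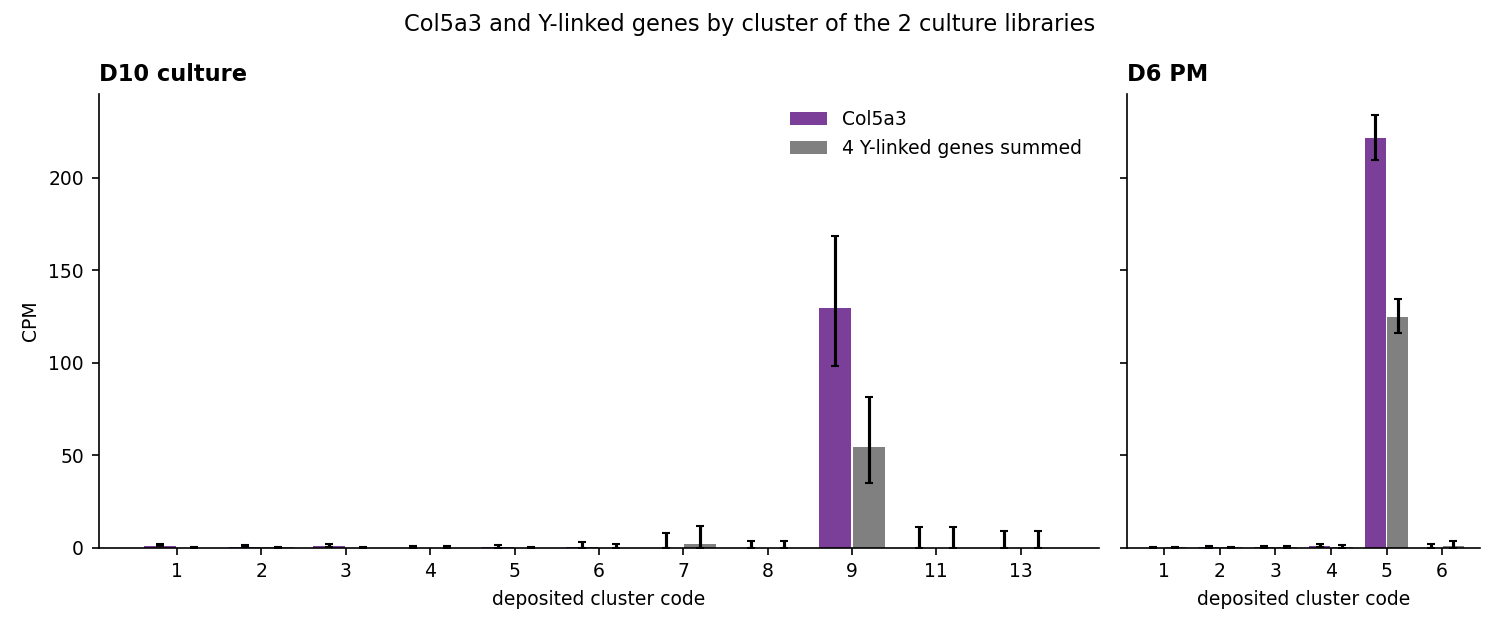
CPM of *Col5a3* and of 4 Y-linked genes summed, by deposited cluster of the D10 culture and D6 PM libraries, with exact 95% Poisson intervals. Both quantities are highest in culture cluster 9 (130 and 54.7 CPM) and D6 PM cluster 5 (221 and 125 CPM).

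Endothelial-like cluster 11 held more *Col3a1* than any other member in the culture, 303 CPM (247 to 369) beside 112 CPM of *Col1a1*, and more *Col5a2* than any other member in the tail, 121 CPM (103 to 140) beside 62.8 CPM of *Col1a1*, and *Col5a1*/*Col5a2* was 1.0 (0.501 to 2.0) and 0.123 (0.0741 to 0.194). Without thinning, *Col1a1* was found in only 3.45% of the culture and 7.04% of the tail cells of cluster 11, so its pooled level rests on few cells. *Col3a1* was found in 55.2% of these cells in the culture and 19.7% in the tail, and *Col5a2* in 20.7% and 69.0%. The culture over tail ratio there was 5.80 (4.25 to 7.95) for *Col3a1* and 0.477 (0.280 to 0.768) for *Col5a2*, on 58 and 71 cells. Of 4 members compared, 2 were at least 2-fold higher (13.9% of 10194 genes) and 1 lower (18%).

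Over the 27 pairs of library and cluster with at least 50 cells, the 5 members other than *Col5a3* followed one another. The Pearson r of log2(CPM + 10) was 0.99 for *Col1a1* and *Col1a2* and between 0.92 and 0.99 for all pairs of these 5, while *Col5a3* gave 0.29 to 0.44 with them. The points share libraries and their depth, and r is given as a description. Among 8459 genes the 5 most like *Col1a1* were *Col1a2*, *Col5a2*, *Col5a1*, *Col6a3* and *Col3a1*, with r from 0.95 to 0.99. Those most like *Col3a1* included *Lum*, the lumican gene, at 0.95, and those most like *Col5a1* included *Col6a1* and *Col6a3*, chains of the beaded-filament collagen VI. Those most like *Col5a3* were *Mmp13*, *Atp6v0d2*, *Ccl8*, *Mmp12* and *Xdh*, with r from 0.98 to 0.99. Without D6 PM cluster 5 and culture cluster 9, left out after the data were seen, none of these 5 was among the 5 most like *Col5a3*, and *Col6a6* led with r of 0.85. *Col5a3* then stood at 3.65 CPM at most, below the 10 CPM added before taking logs, so that this r rests on counts near the floor.

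Genes that act on collagen chains in and outside the cell were described from lists in order of their roles, and were counted only where found in at least 10% of cells of both clusters compared, so that no gene entered through the cluster where it was high. Of the 6878 genes so found in tendon-like cells, 6.66% were at least 2-fold higher in the culture than in the tail and 4.06% lower. Of 14 folding and modification genes compared in tendon-like cells, 4 were at least 2-fold higher in the culture than in the tail and none lower, with a median log2 ratio of 0.68 beside -0.05 for all genes. They were *P4ha1* (4.78) and *P4ha2* (7.17), catalytic subunits of prolyl 4-hydroxylase, and *Plod1* (3.03) and *Plod2* (5.85), lysyl hydroxylases. *Serpinh1*, the procollagen chaperone HSP47, gave 1.36. Of 6 processing and crosslinking genes, none passed 2-fold, and the lysyl oxidase gene *Lox* gave 1.22. *Adamts2*, the procollagen N-proteinase gene, was found often enough in the tail only and gave 0.0901 (0.0709 to 0.113).

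Of 10 fibril assembly genes, 6 were at least 2-fold higher in the culture and none lower. They were *Fn1* (4.02), the fibronectin gene on which collagen fibrils are laid down, the proteoglycan genes *Bgn* (4.39) and *Fmod* (6.75), and the matricellular genes *Thbs2* (3.95), *Postn* (5.60) and *Tnc* (4.89). *Lum* gave 0.634 and *Col12a1*, a collagen of the fibril surface, 0.584. *Kera*, too rare for the comparison across genes, had no UMI in cultured tendon-like cells, where 3 UMIs would be 0.181 CPM, and 204 UMIs (20.1 CPM) in those of the tail. Among 3 collagen receptors, the integrin gene *Itga1* was higher (3.65) and the discoidin receptor gene *Ddr2* lower (0.478). *Itga11*, found often enough in the culture only, gave 10.4, and *Ddr1*, in the tail only, 0.327. Among 9 transcription factor genes tied to collagen genes, *Mkx* was higher (2.19), *Egr1* (0.163) and *Creb3l1* (0.489) were lower, and *Scx* gave 1.64. Of 3 other fibrillar collagens, *Col11a1* was higher (2.51) and *Col2a1*, the cartilage collagen, gave 1.97. *Smad3* and *Col24a1*, found often enough in the tail only, gave 0.424 and 0.283.

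Of the other fibrillar collagens found in at least 10% of cells of both clusters, 2 of 3 in the culture and 3 of 4 in the tail were at least 2-fold higher in cartilage-like than in tendon-like cells, against 1.11% of 5772 and 2.21% of 9546 genes, with 1.58% and 3.09% lower. *Col2a1* and *Col11a1* were 10.4 and 2.60 times higher in cluster 4 than in cluster 1 of the culture and 38.6 and 10.3 times higher in the tail, while all 5 members compared were lower there. *Col27a1* gave 1.03 and 3.04, and *Col24a1* gave 0.92 in the tail. *Col11a2*, found often enough in cluster 4 only, gave 35.8 and 76.1. *Col2a1* and *Col11a2* were among the cartilage markers by which cluster 4 was named, so their higher levels there follow from that choice. The paper also lists *Col2a1* and *Col11a1* among the cartilage genes of its fibrocartilage cluster. The counts of other fibrillar collagens in cluster 4 over cluster 1 are thus not independent of its name, and the background shares do not test them. From PM-like cells at D6 to cultured tendon-like cells, 9 of 13 folding genes, 3 of 3 processing genes and 6 of 6 fibril assembly genes found in at least 10% of cells at both stages were at least 2-fold higher and none of these was lower, beside 7.58% of 6598 genes higher and 4.21% lower. The lists hold 14, 12 and 13 genes. The higher genes included *P4ha2* (14.8), *Fn1* (16.7) and *Dcn* (72.5), and *Lox*, found often enough at D10 only, gave 65.9. *Serpinh1* gave 1.28 over that step. Of 4 collagen receptors so found, 3 were higher and 0 lower. The 9 transcription factor genes did not rise as a list, with 2 higher, *Scx* (48.0) and *Mkx*, and 1 lower, *Egr1*. Their median log2 ratio was -0.01 beside -0.08 for all genes.

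The libraries differed in depth, with a median of 5622, 13512 and 8171 UMIs per cell for D10 culture, tail and D6 PM and 53403944, 31343741 and 51858825 UMIs in all. Only 4, 10 and 3 cell barcodes were shared between pairs of libraries. Scrublet called 1.48%, 0.439% and 1.36% of their cells as doublets. These cells were kept.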

How the data were processed

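The 3 libraries were made with a 10x Genomics 3′ v3 kit. The authors aligned and counted reads with Cell Ranger, ignoring multi-mapping reads, removed cells with high mitochondrial shares and the extremes of transcripts per cell, and clustered the cells with Seurat 3.0. What they deposited are raw UMI counts, whole numbers for every gene in every cell, next to a cluster code for each cell. The genome build of these counts is not given in the sources used here.

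UMIs were summed per cluster and library with Python 3.11.15, NumPy 2.4.6, SciPy 1.17.1 and pandas 2.3.3. Comparisons across genes used genes with a UMI in 10% or more of cells in one group or the other, and a gene was counted as higher or lower from 2-fold, with no test; genes of the lists were counted where found in 10% of cells of both groups. Cells were thinned to 3000 UMIs (seed 1), leaving out 1157, 100 and 1006 cells. Doublets were called by Scrublet in Scanpy 1.11.5, and figures drawn with Matplotlib 3.10.9. The 2-fold rule was run on simulated counts with counting error only, in which 200 of 7007 genes were changed 4-fold. All 200 were recovered and 0 unchanged genes were called. Spread between cells or libraries was not simulated, so the run checks the computation only.

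The members and the gene lists were chosen with earlier results of these data known. Genes named are the members, the genes of the fixed lists and markers, the 5 genes most like each member and the sex-linked genes, which were chosen after their values were seen. Alternatives varied the denominator of CPM, the weight of cells, doublets, thinning, thresholds and the pseudocount.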

Additional observations from a re-analysis of the deposited data

Results flagged for a closer look

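Some chain ratios of cartilage-like cluster 4 lay on opposite sides of those of tendon-like cluster 1 in culture and tail, on intervals of the counts only, and the difference between the libraries was not tested. *Col1a1*/*Col1a2* was 2.18 in cluster 4 and 1.40 in cluster 1 of the culture, but 0.895 and 1.26 in the tail. *Col3a1*/*Col1a1* was 1.0 and 0.687 in the culture, but 0.984 and 1.12 in the tail. *Col5a2*/*Col1a1* was 0.368 and 0.338 in the culture, but 0.185 and 0.247 in the tail. Type III UMIs made up 33.1% and 23.9% of the members' UMIs in the culture, but 26.7% and 33.5% in the tail. By contrast, *Col5a1*/*Col5a2*, *Col5a1*/*Col1a1*, *Col3a1*/*Col5a2* and the type V share were higher in cluster 4 than in cluster 1 in both libraries.

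Cluster 9 differed from cluster 1 in opposite directions in culture and tail for *Col5a1* and *Col5a3*, which was not tested either, while *Col5a2* was lower in cluster 9 in both (0.696 and 0.627). *Col5a1* stood in cluster 9 at 1.30 times its cluster 1 level in the culture and at 0.639 times in the tail, and *Col5a1*/*Col1a1* was 0.215 and 0.131 in the culture, but 0.128 and 0.180 in the tail. Type V UMIs made up 20.4% and 16.3% in the culture, but 10.4% and 12.8% in the tail. *Col5a3* stood at 108 times (63.7 to 189) its cluster 1 level in the culture and at 0.113 (0.00277 to 0.667) in the tail, the latter on 1 UMI in cluster 9.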

How the results depend on the processing

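Of 222 alternative values for 64 results, 128 stayed within the counting interval or within 1.5 times the count, 93 moved beyond it and 1 changed direction. Leaving out doublets or cells with few genes, another CPM denominator and equal weights gave 96 ratios between culture and tail or between clusters of the culture, which stayed on their side of 1 and moved by at most 1.15 times. With 30 ratios centred on the median gene, chosen after seeing the data, *Col3a1* in D6 PM cluster 5 over cluster 4 turned from 0.958 to 1.20, and the summed ratio was 7.03 there (5.63 as measured), 0.854 and 1.60 for culture over tail in clusters 1 and 4 and 0.857 for proliferating over tendon-like cells. Among cells with an *Scx* UMI, also chosen after seeing the data, the summed culture over tail ratio was 0.864. With each cell given equal weight, the summed ratio was 0.817 for culture over tail in tendon-like cells (0.741 when UMIs were pooled), 0.802 for proliferating over tendon-like and 0.449 for cartilage-like over tendon-like cells of the culture (0.832 and 0.477), and *Col1a1*/*Col1a2* was 1.44 in cultured tendon-like cells (1.40). With CPM over genes other than mitochondrial, ribosomal protein, haemoglobin and collagen genes, the first 2 ratios were 0.721 and 0.823. The share of tail blood cells with *Col1a1* was 3.12% at 2000 UMIs and 14.1% without thinning (7.20%), and that of D6 PM cluster 5 cells with *Col5a3* was 27.8% at 2000 UMIs, 43.5% at 5000 and 44.4% without thinning (33.9%). Of the genes compared in tendon-like cells, 600 were higher and 1420 lower in the culture, against 378 and 381 at a minimum of 50 CPM, 1159 and 2810 at 1.5-fold (where 2 of the 5 members, *Col3a1* and *Col5a1*, counted as lower, against none at 2-fold), 306 and 713 at 3-fold, and 798 and 1083 with ratios centred on the median gene. With a pseudocount of 1, 3 of the 5 genes most like *Col1a1* were shared. For the weights, denominators and *Scx*, the cause was not tested. No paired analysis was possible because each group was 1 library. Depth limits *Col5a3* in cultured cluster 4, where no UMI was found and 3 UMIs would be 0.902 CPM.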

Other observations

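Further clusters held unusual mixtures of chains. Glia-like cluster 14 of the tail, 38 cells, carried 684 CPM (621 to 751) of *Col1a2*, 702 CPM (639 to 770) of *Col3a1* and 309 CPM (267 to 355) of *Col1a1*, so that *Col1a1*/*Col1a2* was 0.452 (0.38 to 0.536). At 3000 UMIs *Col1a2* was found in 67.6% of these cells and *Col1a1* in 18.9%. Cluster 5 of the tail, 121 cells with 7967 CPM of 6 muscle markers, gave 0.573 (0.504 to 0.651) for the same ratio.

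Cells of cluster 4 with and without an *Scx* UMI at 3000 UMIs differed in the type I chains. In the tail *Col1a1* stood at 843 CPM (761 to 932) in 151 cells with *Scx* and 427 CPM (352 to 513) in 89 cells without, a ratio of 1.98 (1.60 to 2.46), while *Col1a2* gave 0.663 (0.558 to 0.788). In the culture the ratios were 1.18 (1.04 to 1.34) and 0.690 (0.590 to 0.811). In tendon-like cells *Col3a1* was lower in cells with *Scx*, at 0.710 in the culture and 0.739 in the tail. Cells of 1 library are not replicates, and these splits were not tested.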
